A study of Mus musculus with 18 samples.

Results

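Of the 434 circular RNAs measured in mouse liver, the 217 of shortest genomic span are described here. Span is the number of bases from the first to the last coordinate of a circular RNA. The table was sorted by span, ties were kept in file order, and the first 217 were taken, so no measured level entered the choice. The spans ran from 143 to 4686 bp, with a median of 1632 bp. The other 217 ran from 4696 to 189347 bp, with a median of 11453 bp.

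The study sequenced liver RNA, depleted of ribosomal RNA, from male C57BL/6 mice that entered the experiment at 6 weeks of age. Each group began with 15 of the 45 mice, and 6 livers per group were sequenced, in week 22, so the p-values below measure the spread between mice. Control mice were given water by gavage and injected intraperitoneally with olive oil. CCl4 mice were given water by gavage and injected intraperitoneally with carbon tetrachloride (CCl4), which damages the liver and served to induce cancer. CCl4+PZH mice received the same toxin and, by daily gavage, a traditional Chinese medicine named Pien Tze Huang (PZH). Sample labels of this last group spell it PTH, as does the growth protocol; both names were read as 1 treatment. No genetic change was named for any group, and the RNA came from bulk liver, in which fewer cells of a type and less RNA per cell cannot be told apart.

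A circular RNA forms when the spliceosome joins the end of an exon back to the start of the same exon or of an exon upstream, a reaction called back-splicing. The closed loop has no free end, resists exonucleases and is counted by reads that cross its back-splice junction. A short span can hold a single exon or a few neighbouring exons with the introns between them. Span is therefore an upper limit on the length of the RNA, and exons were not used here. In liver, circular RNAs come from genes of many kinds, metabolic enzymes and regulators among them.

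The letters of the circular RNAs could be read only where an edge fell in a RefSeq promoter window, which held 1 edge of each of 2 short circular RNAs. They are shown because a back-splice edge is expected to lie at an intron boundary, where an intron begins with GT and ends with AG. Capitals mark the 15 bases inside the circle and lower case the 15 bases outside it, 5′ to 3′ on the host strand, in GRCm38.p6.
Rbm4 at chr19:4793995-4794024, minus strand: ttcctggcctctcagGTAATTGGCGTTCCG
Cd84 at chr1:171873425-171873454, plus strand: GGATTGTCCTGGAAGgtaaaacgtgagaat
The Rbm4 edge, at the upstream end of the circle (chromosome 19, 4792398 to 4794009, 1612 bp), followed an AG outside the circle and was also an annotated start of Rbm4, an RNA-binding splicing regulator. The Cd84 edge, at the downstream end of the circle (chromosome 1, 171872697 to 171873439, 743 bp), preceded a GT. Cd84 encodes a receptor of leukocytes. The Cd84 edge lay 71 bp from an annotated start of Gm51686, a gene on the other strand. The Acaca circular RNA (chromosome 11, 84193079 to 84195687, 2609 bp) held a whole promoter window of Acaca, the gene of acetyl-CoA carboxylase, with both edges outside it. No circular RNA of short span contained a mature miRNA of the RefSeq table (0 of 217), and none of the longer ones did (0 of 217).

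The values are CPM, back-splice read counts scaled by the authors to a library total. Each was a whole multiple of the value of 1 read, so the reads could be recovered. The short circular RNAs held 12947 of 25803 recovered reads, or 50.2%, and the longer ones 12856. They numbered 367 (control 3) to 1475 (control 4) reads per library, with a median of 3 reads behind a value above 0. Of their values, 30.8% were listed at 0, against 32.0% for the longer ones. Up to 3 reads can lie behind a value of 0, or 0.135 CPM in control 3 and 0.918 CPM in control 2 (counting error only). A later deposit added controls 2, 3 and 4 to the first 15 libraries, and these 3 held both the lowest and the highest summed level. Summed CPM of the short circular RNAs was 120 ± 102 in control livers, 77.9 ± 17.7 with CCl4 and 105 ± 24.9 with CCl4+PZH (SD, n = 6 each).

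The hosts were mostly protein-coding genes. A host here is the gene whose limits contain both edges, and 209 of 217 lay in protein-coding genes, 5 in pseudogenes, 1 in a long non-coding RNA gene (Pvt1) and 2 in no gene. The longer circular RNAs had 210, 1, 3 and 3. The pseudogene hosts were Rn18s-rs5, Gm9762, Gm38051 and Mug-ps1, the last with 2 circular RNAs. Their values are uncertain, since near-identical copies can share reads. The same holds for Mug2 and Cfhr3. No strand was given, so a host cannot be told from a gene that overlaps it on the other strand.

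Short circular RNAs came from many hosts, mostly with 1 each. They lay in 203 genes, and 34 of 217 had a host with another circular RNA anywhere in the table, against 65 of the 217 longer ones. Of the short ones, 16 shared an exact edge with another circular RNA, against 47 of the longer ones. The median host length was 58866 bp, against 107623 bp for hosts of longer circular RNAs. A short circular RNA covered a median of 2.76% of its host, with quartiles of 1.21% and 5.57%, and a longer one covered 11.03%. For 160 with a known host strand, the median midpoint lay at 0.53 of the host gene, where 0 is the start and 1 the end. For 177 longer ones it lay at 0.42. In 88 of 160 it fell in the middle part when the gene was cut into 3 equal parts, in 38 in the first and in 34 in the last. Of the 177 longer ones, 91 fell in the middle part, 53 in the first and 33 in the last.

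**Figure D1:**
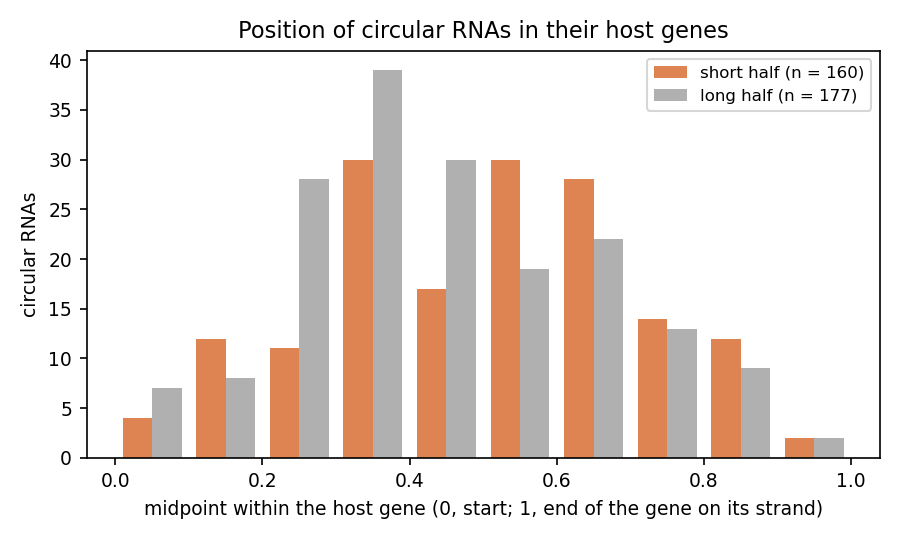
Position of circular RNAs in their host genes. Bars count circular RNAs by midpoint within the host gene, from 0 (start) to 1 (end, on the gene's strand), for 160 of short span and 177 of longer span, with medians at 0.53 and 0.42.

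In 14 genes a short and a longer circular RNA were both measured, which is 6.90% of the short hosts and 7.57% of the long hosts: Abca1, Arhgap32, Atrnl1, Cfhr3, Dym, Eefsec, Etv6, Gsap, Memo1, Mug-ps1, Rfx7, Tlcd4, Ttc39c and Vav3. Where such pairs shared an edge, the longer averaged higher in Rfx7, Tlcd4, Cfhr3, Memo1 and Eefsec, and the shorter in Mug-ps1 and Abca1. Shorter and longer lay close in Cfhr3 (0.234 and 0.272 CPM), Memo1 (0.168 and 0.181 CPM) and Eefsec (0.558 and 0.621 CPM). In Rfx7, a transcription factor gene, both ended at 72593360 on chromosome 9. The circle of 1610 bp averaged 0.655 CPM over 18 libraries and that of 16322 bp averaged 1.36 CPM. In Tlcd4 both ended at 121235764 on chromosome 3, and the circle of 722 bp averaged 0.312 CPM against 1.55 CPM for that of 7455 bp. In the pseudogene Mug-ps1 both started at 122207897 on chromosome 6. There the circle of 1210 bp averaged 1.57 CPM and that of 13113 bp averaged 0.117 CPM. In Abca1, the gene of a cholesterol efflux pump, the circle of 2280 bp averaged 0.344 CPM and that of 26010 bp averaged 0.168 CPM, from a shared start at 53107006 on chromosome 4.

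Hosts with 3 short circular RNAs were Rnf114, a ubiquitin ligase gene, and Adgre1, the gene of the macrophage antigen F4/80. In Rnf114 on chromosome 2, a circle of 451 bp (167510876 to 167511326) averaged 0.192 CPM. A circle of 1749 bp with the same start averaged 0.445 CPM, and one of 4280 bp with the same end averaged 0.416 CPM. The shortest of the 3 was thus the lowest. In Adgre1 on chromosome 17, the circle of 1203 bp (57419322 to 57420524) averaged 0.746 CPM. One of 1637 bp that shared its end averaged 0.117 CPM, and the third, 1662 bp from 57406834 to 57408495, averaged 0.235 CPM.

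The shortest of all was a circle of 143 bp in Hivep1, a zinc finger transcription factor gene (chromosome 13, 42055400 to 42055542), at 0.408 CPM. Etv6, an ETS transcription factor gene, held one of 159 bp at 0.248 CPM. Crk, an adaptor protein gene, held one of 160 bp at 0.148 CPM. Ube2g2, a ubiquitin-conjugating enzyme gene, held one of 169 bp at 0.469 CPM. At the limit of the choice, Tom1l2 (4685 bp) had 0.115 CPM and Lnpk (4686 bp) 0.242 CPM, while Ipo7 (4696 bp) and Abcd3 (4752 bp), just outside, had 0.124 and 0.297 CPM.

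Levels were low across the whole range of spans. The median over the 217 was 0.312 CPM, against 0.288 CPM for longer circular RNAs, and 150 of 217 averaged under 0.5 CPM. Only 21 averaged 1 CPM or more, and the 10 with most reads held 18.4% of the reads of all 217. Across these 217, which share the same libraries, Spearman's rho between span and mean CPM was −0.147. No circular RNA of the table was above 0 in fewer than 9 of 18 libraries. Of the short ones, 34 were above 0 in exactly 9 and 5 in all 18. Among those 5 were circular RNAs in Ogdh at 1.55 CPM, Pan3 at 1.01 CPM, Esco1 at 0.989 CPM and Farsa at 0.913 CPM. The products of these 4 genes are a subunit of an enzyme of the citric acid cycle, a deadenylase subunit, a cohesin acetyltransferase and a subunit of phenylalanyl-tRNA synthetase.

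**Figure D2:**
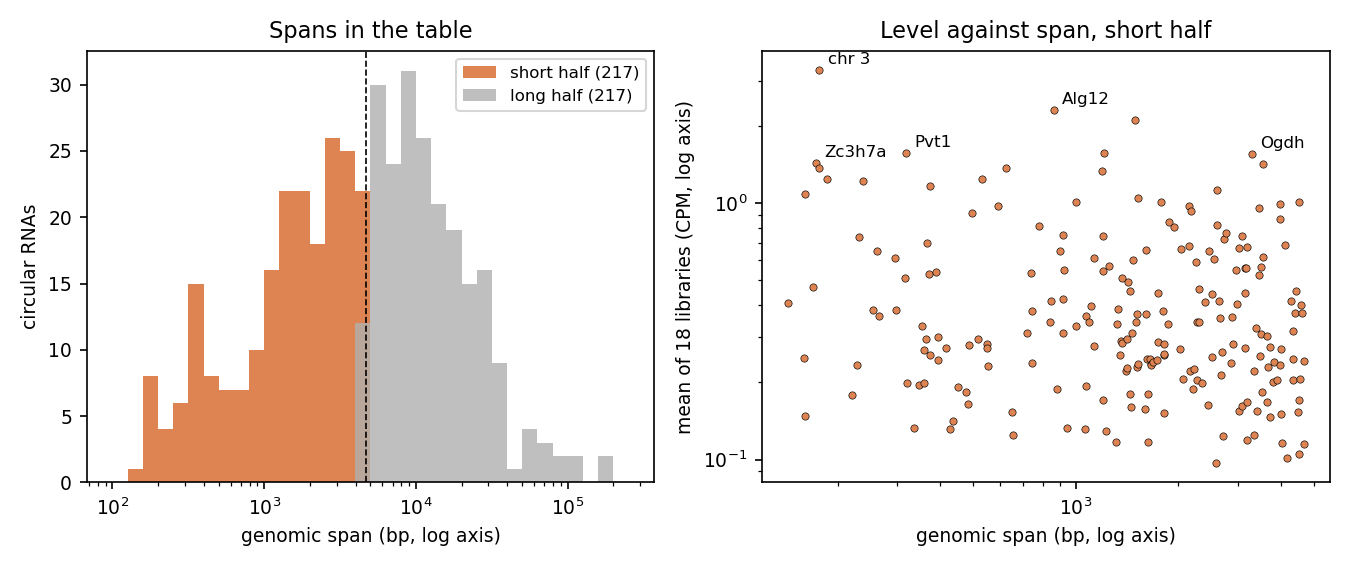
Spans and levels. Left, a histogram of genomic span in bp (log axis) for all 434 circular RNAs, with the limit as a dashed line; right, mean CPM over 18 libraries (log axis) against span for the 217 short ones. The circular RNA on chromosome 3, at 177 bp and 3.29 CPM, stands at the top left.

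The most abundant short circular RNA lay in no annotated gene. It ran from 5860581 to 5860757 on chromosome 3 (177 bp) and averaged 3.29 CPM over 18 libraries. The nearest annotated genes were the pseudogene Gm8797, 109286 bp to its left, and the long non-coding RNA gene Gm46796, 246260 bp to its right. Next came Alg12, which encodes a mannosyltransferase of N-glycan assembly (chromosome 15, 88811297 to 88812159, 863 bp), at 2.73 ± 1.997 CPM in control livers, 1.68 ± 1.09 with CCl4 and 2.52 ± 1.35 with CCl4+PZH (SD, n = 6 each). A circle of 1498 bp in Ttc39c (chromosome 18, 12728620 to 12730117) stood at 3.598 ± 3.605, 0.656 ± 0.669 and 2.08 ± 1.80 CPM. The SDs were as large as many of the differences between these means.

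Pvt1, a long non-coding RNA gene beside Myc, gave a circle of 318 bp (chromosome 15, 62107148 to 62107465). It stood at 1.05 ± 1.53 CPM in control livers, 1.73 ± 1.08 with CCl4 and 1.91 ± 0.608 with CCl4+PZH (SD, n = 6 each), and no comparison of its groups passed the test. In Ogdh (chromosome 11, 6313788 to 6317080, 3293 bp) the means were 2.17 ± 2.16, 0.990 ± 0.596 and 1.49 ± 1.21 CPM. The other members among the highest 10 lay in Mug-ps1 (1.57 CPM), Zc3h7a (1.43 CPM), Gsap (1.41 CPM), Ndufs1 (1.37 CPM) and Fam160b1 (1.37 CPM). The Ndufs1 circle of 176 bp, from the gene of a subunit of respiratory complex I, was above 0 in 3 of 6 controls. It ran from 0 to 9.29 CPM in controls, with its highest value in control 4.

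Short circular RNAs made up a larger share of the table's summed CPM in CCl4 livers than in controls by their means, with ranges that overlapped. The share was 46.8% ± 4.68 in controls (40.8 to 51.9%), 52.6% ± 1.92 with CCl4 (50.2 to 55.1%) and 50.9% ± 2.78 in CCl4+PZH (47.4 to 53.9%; SD, n = 6 each). In controls 1, 5 and 8, of the first deposit, it was 45.3% ± 2.63 (SD, n = 3). The circular RNA on chromosome 3 was part of this. Without it the shares were 50.6% ± 0.980 in CCl4 and 49.4% ± 2.43 in CCl4+PZH. Those under 1000 bp, 66 in number, held 14.8% ± 2.95 in controls, 21.8% ± 3.87 with CCl4 and 20.1% ± 3.37 with CCl4+PZH. Without the circular RNA on chromosome 3 the CCl4 and CCl4+PZH shares were 18.5% ± 2.24 and 17.7% ± 1.53, ranging from 14.6 to 21.1% and from 15.9 to 19.5%, while the controls ranged from 11.8 to 19.3%. The ranges of the 3 groups overlapped without it. They also overlapped with it, at 16.4 to 27.0% in CCl4 and 16.9 to 26.1% in CCl4+PZH.

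**Figure D3:**
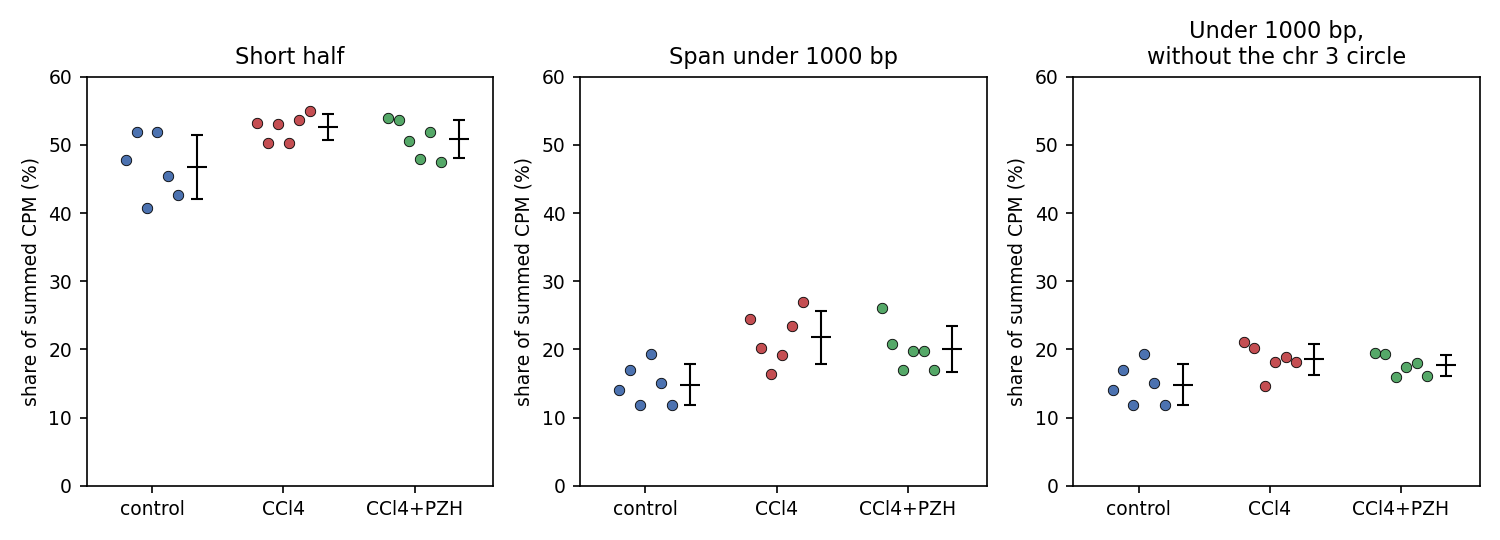
Share of summed CPM held by short circular RNAs. Each point is 1 mouse, with mean and SD bars by group (n = 6), for all 217, for those under 1000 bp, and for those under 1000 bp without the circular RNA on chromosome 3. Controls average 46.8% in the first panel and CCl4 livers 52.6%, with ranges that overlap.

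CCl4 livers were set against controls to find circular RNAs that differ in the cancer model. A pair of short circular RNAs rose and none fell: that on chromosome 3 and one in Zc3h7a, an RNA-binding zinc finger protein gene. The rarest entries of the table were detected in 9 libraries, more than the 6 of the control group. A circular RNA found in controls alone thus had no place in it, whereas one missing from every control could enter through the other groups. That on chromosome 3 was of the second kind. The lack of falls therefore says nothing about circular RNAs lost from both the CCl4 and the CCl4+PZH livers. Of all 434, 0.691% were called (limma with Benjamini-Hochberg adjustment over 434, threshold 0.05), with 0.461% called higher. For no short circular RNA were the 2 groups apart without overlap, against 0.691% of the table. Differences are given on the log2(CPM + 0.13655) scale, which understates changes of low values. At an unadjusted p under 0.05 there were 17 of 217, against 8.29% of the table. Of these, 5 were higher in CCl4 (2.07% of the table) and 12 lower (6.22%). The median difference was −0.22 for the 217 and −0.28 over the table, and 83 of 217 were above 0.

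That downward shift depended on scaling. With values scaled to the sum of the table, the median over all 434 was −0.03 and that of the short ones 0.05, with 111 of 217 above 0. Calls were then 3, of which Mlxipl was lower (−2.21, adjusted p = 0.0436, limma). By edgeR and DESeq2 on recovered reads, 2 and 1 were called, and the medians of the short ones were 0.02 and 0.05. With quantile normalization the median for all 434 was −0.01, so a difference named below is read against a median that lies between −0.28 and −0.01.

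The circular RNA on chromosome 3 was listed at 0 in 6 of 6 controls. In CCl4 livers it ran from 0 to 9.19 CPM with a median of 5.12 CPM, and in CCl4+PZH livers from 2.40 to 9.61 CPM with a median of 4.55 CPM. It was above 0 in 5 of 6 CCl4 livers and in 6 of 6 CCl4+PZH livers, so the treated livers did not overlap the controls while the CCl4 livers did through replicate 2, at 0. The recovered reads of the other 5 CCl4 livers were 54, 23, 18, 81 and 100, so each of them held 18 or more. The means were 4.89 ± 3.62 and 4.97 ± 2.53 CPM (SD, n = 6 each), or 11.3-fold and 11.5-fold the mean level that 3 reads per control library would give, counting error only. The difference from control was 4.39 for CCl4 (SE 0.80, adjusted p = 1.97e-05, limma) and 5.09 for CCl4+PZH (SE 0.80, adjusted p = 1.01e-07). These share the same controls. At 0 in every control, this circular RNA could be in the table only by being above 0 in 9 or more of the other livers. The p-values and the lack of overlap take no account of that. With controls 1, 5 and 8 alone the values were 4.39 (adjusted p = 5.73e-06) and 5.09 (adjusted p = 1.96e-08, limma). All controls were at 0, so these differences could not change with the choice of controls and are no separate support.

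The Zc3h7a circular RNA (chromosome 16, 11144001 to 11144173, 173 bp) had a single control above 0, control 2 at 2.755 CPM. In CCl4 livers it ran from 0 to 4.58 CPM with a median of 1.89 CPM, and in CCl4+PZH livers from 0 to 2.86 CPM with a median of 1.91 CPM. Control 2 was above 4 of the 6 CCl4 livers, of which 1 was at 0, so the groups overlapped. The means were 0.459 ± 1.12, 2.25 ± 1.64 and 1.58 ± 1.30 CPM (SD, n = 6 each). The difference was 2.80 for CCl4 (SE 0.74, adjusted p = 0.0316, limma) and 2.05 for CCl4+PZH against the same controls (SE 0.74, adjusted p = 0.474). The CCl4 call held in 16 of 28 alternatives, and the adjusted p ran from 8.52e-05 to 0.336 over them. It was lost without any 1 of controls 1, 4, 5 and 8 or CCl4 replicates 1, 2, 7 and 8. With controls 1, 5 and 8 alone, all at 0, it was 3.53 (adjusted p = 0.00171).

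Both called circular RNAs were under 500 bp, and they did not go together in every liver. CCl4 replicate 2 had 0 reads of that on chromosome 3 and 25 of that in Zc3h7a, and CCl4 replicate 4 had 23 and 0. Of the 42 under 500 bp, 7 were at an unadjusted p under 0.05 in CCl4 against control, with a median difference of −0.25, where 8.29% of all 434 were at such a p. There were 1 of 24 from 500 to under 1000 bp (median 0.16), 5 of 60 from 1000 to under 2000 bp (median −0.32) and 4 of 91 from 2000 bp to the limit (median −0.20). The shortest group thus held both calls, and its median lay near that of all 434.

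**Figure D4:**
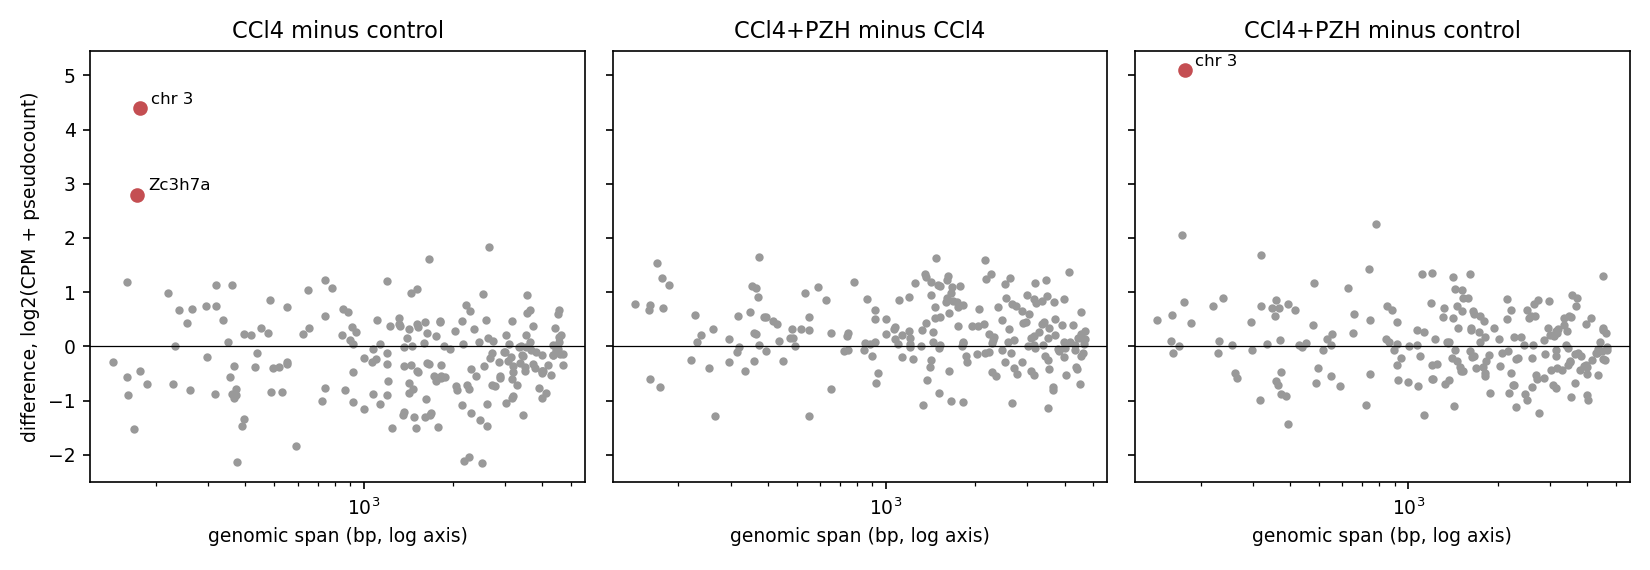
Differences against span. Each point is 1 of the 217 short circular RNAs, with span in bp (log axis) and the difference on the log2(CPM + pseudocount) scale in 3 comparisons; larger red points passed the adjusted threshold. The called points, at 4.39, 2.80 and 5.09, lie under 500 bp.

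The circular RNAs next in order of p in CCl4 against control did not pass. In Mlxipl, the gene of the glucose-responsive transcription factor ChREBP (chromosome 5, 135121506 to 135124017, 2512 bp), controls ran from 0.326 to 1.22 CPM (median 0.867). CCl4 livers ran from 0 to 0.612 CPM (median 0) and CCl4+PZH livers from 0 to 0.882 CPM (median 0.293). All 6 controls were above 0 and 4 of 6 CCl4 livers were at 0, with overlap through CCl4 replicate 5. The difference was −2.15 (SE 0.70, adjusted p = 0.155, limma).

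In Hnrnpu, which encodes a nuclear RNA-binding protein (chromosome 1, 178323134 to 178325313, 2180 bp), controls ran from 0.407 to 3.98 CPM (median 0.802). CCl4 livers ran from 0 to 1.59 CPM (median 0.0686) and CCl4+PZH livers from 0.172 to 1.33 CPM (median 0.517). The 3 groups overlapped, and controls 2 and 4 were the highest. The difference of CCl4 from control was −2.11 (SE 0.73, adjusted p = 0.199, limma), and with controls 1, 5 and 8 alone it was −1.33 (adjusted p = 0.658).

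In the pseudogene Gm9762 (chromosome 3, 78966402 to 78966775, 374 bp), controls ran from 0.224 to 4.26 CPM (median 1.66), CCl4 livers from 0 to 1.14 CPM (median 0.183) and CCl4+PZH livers from 0 to 2.06 CPM (median 1.46). The groups overlapped, and 3 of 6 CCl4 livers were at 0. The difference of CCl4 from control was −2.13 and that of CCl4+PZH from CCl4 was 1.65, with adjusted p of 0.199 and 0.804 (limma). These share the same CCl4 livers. Pon1, the gene of a paraoxonase carried by lipoproteins, had 1.07 ± 0.688 CPM in control livers, 0.105 ± 0.103 with CCl4 and 0.592 ± 0.462 with CCl4+PZH (SD, n = 6 each; CCl4 against control −2.04, adjusted p = 0.199). Without control 3, Gm9762 and Pon1 passed as well, which made 4 calls.

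The other members of smallest p in CCl4 against control, none of which passed, fell on both sides of 0. Higher in CCl4 by their means were circular RNAs in Snx5, a sorting nexin gene (2654 bp, 1.83), Adgre1 (1662 bp, 1.61) and Crk (160 bp, 1.18), with adjusted p of 0.246, 0.259 and 0.403. Lower were those in Tmbim6, a regulator of cell death (−1.83), Ube2g2 (−1.53) and the RNA helicase gene Ddx52 (−1.50), with adjusted p of 0.296, 0.415 and 0.470. For Ube2g2 the difference was −0.854 with controls 1, 5 and 8 alone (adjusted p = 0.902, limma).

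**Figure D5:**
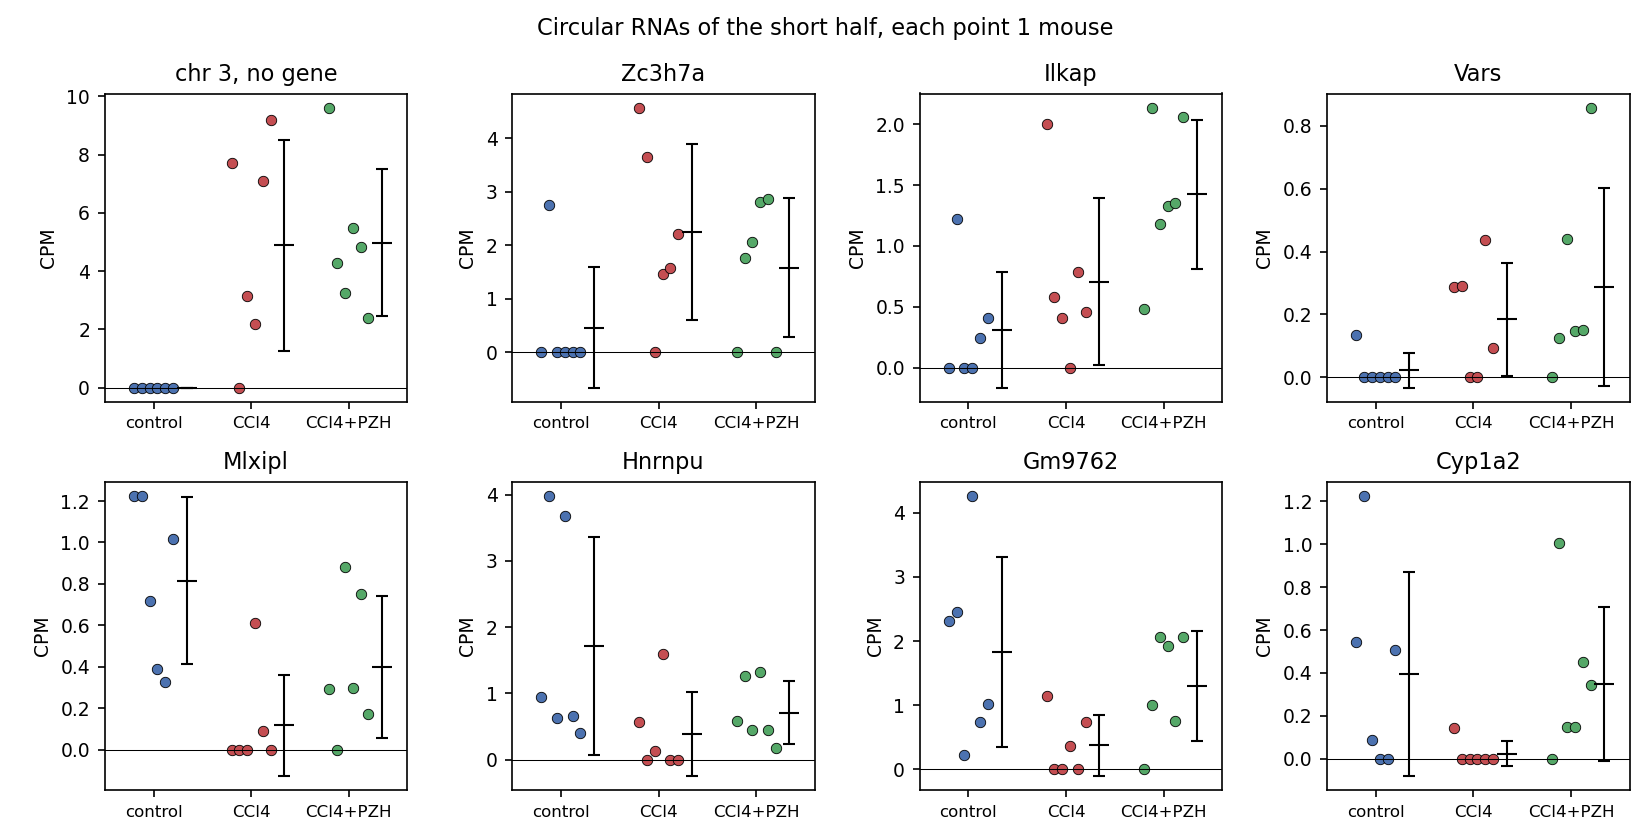
CPM of 8 short circular RNAs by group. Each point is 1 mouse (n = 6 per group), with mean and SD beside it; axes differ between panels. That on chromosome 3 is at 0 in all 6 controls, and control 2 is the 1 control with Zc3h7a above 0.

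CCl4+PZH livers were set against CCl4 livers to find effects of the treatment, and no short circular RNA passed (limma, 0 of 217). Over all 434 the share called was 0.0%, and groups did not overlap for 0 of 217, against 0.23%. At an unadjusted p under 0.05 there were 10, against 5.53% of the table. Of these, 7 were higher in CCl4+PZH (4.38% of the table) and 3 lower (1.15%), and the lowest adjusted p was 0.804. By edgeR 0 passed and 6 were at an unadjusted p under 0.05, and by DESeq2 0 and 11. The median difference was 0.22 for the 217 and 0.23 over the table, and 151 of 217 were above 0. Scaled to the sum of the table, 107 of 217 were above 0. For that on chromosome 3 the difference was 0.70 (SE 0.80), and for Zc3h7a −0.75 (SE 0.74).

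The 4 of smallest p in that comparison were higher in CCl4+PZH livers by their means. In Mug-ps1 (chromosome 6, 122229313 to 122230786, 1474 bp) CCl4 livers ran from 0 to 0.429 CPM (median 0.105), CCl4+PZH livers from 0.0971 to 1.81 CPM (median 0.808) and controls from 0 to 2.13 CPM (median 0.526). The difference was 1.63 (SE 0.71, adjusted p = 0.804, limma), and the groups overlapped. Mug-ps1 is a pseudogene of the murinoglobulins, protease inhibitors of plasma.

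In Ube2g2 (chromosome 10, 77630726 to 77630894, 169 bp) CCl4 livers ran from 0 to 0.489 CPM (median 0), CCl4+PZH livers from 0 to 1.20 CPM (median 0.463) and controls from 0 to 2.14 CPM (median 0.441). It was above 0 in 2, 5 and 5 of 6 livers in that order, with overlap between all groups. The difference of CCl4+PZH from CCl4 was 1.54 (SE 0.70, adjusted p = 0.804, limma).

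In Cyp1a2, the gene of a cytochrome P450 of drug metabolism (chromosome 9, 57678987 to 57680339, 1353 bp), CCl4 livers ran from 0 to 0.143 CPM, CCl4+PZH livers from 0 to 1.01 CPM (median 0.246) and controls from 0 to 1.22 CPM (median 0.299). A single CCl4 liver was above 0, against 5 CCl4+PZH livers and 4 controls. The difference of CCl4+PZH from CCl4 was 1.34 (SE 0.63, adjusted p = 0.804, limma). The remaining members of smallest p, all at that adjusted p, were Egfr (1.59), Dennd5b (1.38), Pon1 (1.33) and Cnksr3 (1.31), and on the other side Snx5 (265 bp, −1.29), Dcp2 (−1.28), Golph3 (−1.13) and Trpm7 (−1.02). Egfr encodes the epidermal growth factor receptor and Dcp2 the mRNA decapping enzyme. The 2 Snx5 circles shared a start, at 144255340 on chromosome 2. That of 265 bp averaged 0.467, 0.514 and 0.111 CPM in control, CCl4 and CCl4+PZH livers, and that of 2654 bp averaged 0.0611, 0.714 and 0.291 CPM.

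CCl4+PZH livers differed from controls in 1 short circular RNA, that on chromosome 3, which rose, against 0.23% called over the table. Groups did not overlap for it alone, against 0.461% of the table. At an unadjusted p under 0.05 there were 9 of 217, against 5.07% of the table. Of these, 7 were higher (3.23% of the table) and 2 lower (1.84%). The median difference was 0.02 for the 217 and 0.02 for all 434. Circular RNAs found in controls alone had no place in the table, so their loss could not be seen in this comparison either.

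Next in that comparison was Ilkap, the gene of a phosphatase that acts on integrin-linked kinase signalling (chromosome 1, 91384565 to 91385346, 782 bp). Controls ran from 0 to 1.22 CPM (median 0.122), CCl4 livers from 0 to 2.002 CPM (median 0.522) and CCl4+PZH livers from 0.486 to 2.14 CPM (median 1.34). Control 2 was the highest control, and all 6 CCl4+PZH livers were above 0. The difference from control was 2.27 (adjusted p = 0.276, limma), and it passed without control 2.

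In Vars, the gene of valyl-tRNA synthetase (chromosome 17, 35013265 to 35013747, 483 bp), controls ran from 0 to 0.136 CPM, CCl4 livers from 0 to 0.437 CPM (median 0.189) and CCl4+PZH livers from 0 to 0.859 CPM (median 0.149). A single control was above 0, against 5 CCl4+PZH livers. The difference was 1.17 and did not pass. The other members of smallest p, none called, were Pvt1 (1.69), Abcc2 (739 bp, 1.43), Rfx7 (1.35), Mmp15 (1.34), Wac (1.29) and Atl3 (1.28) on 1 side and Lrp6 (−1.43) and Tnks2 (−0.98) on the other. Abcc2 encodes an export pump of the bile canaliculus and Lrp6 a Wnt co-receptor.

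No circular RNA from a metabolic host was called. In CCl4 against control, 37.1% of all 434 were above 0. The share was 69.8% in CCl4+PZH against CCl4 and 52.3% in CCl4+PZH against control. The counts below are read against these shares, which apply without rescaling. All gene lists were chosen with earlier results of these data known, so their counts and medians are no result about such hosts as classes. In lipid regulation and fatty acid metabolism, 0 of 5 (Acaca, Elovl5, Mlxipl and Tlcd4 among them) were above 0 in CCl4 against control. Their median was −1.0003, against −0.28 for all 434. All 5 were also below 0 by edgeR, by DESeq2 and with quantile or table-sum scaling. Acaca stood at 1.14 ± 0.907, 0.398 ± 0.286 and 0.932 ± 1.18 CPM in control, CCl4 and CCl4+PZH livers (SD, n = 6 each). In CCl4+PZH against CCl4, 4 of 5 were above 0 with a median of 0.40, against 0.23 over the table, and 3 of 5 with table-sum scaling. In CCl4+PZH against control, 0 of 5 were above 0 (median −0.76), or 1 of 5 with table-sum scaling.

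The drug metabolism genes Cyp1a2 and Pon1 were both below 0 in CCl4 against control (median −1.65) and both above 0 in CCl4+PZH against CCl4 (median 1.34), and this held under every scaling tried. Here and in the other lists, both comparisons use the same CCl4 livers with opposite sign. Low values in those livers alone would give such opposite signs, so the signs are not separate results and no reversal is read from them. Of 6 hosts of amino acid, nucleoside and glucose metabolism (Cth, G6pc, Gls2, Gys2, Kynu, Uox), 1 was above 0 in CCl4 against control and 5 in CCl4+PZH against CCl4, with medians of −0.85 and 0.47 and no call. These counts were 1 and 4 with table-sum scaling, 1 and 3 with quantile normalization, and 2 and 3 by both edgeR and DESeq2. Cth, which encodes a cysteine-forming enzyme, stood at 1.82 ± 1.79, 0.414 ± 0.285 and 1.13 ± 0.633 CPM. The 4 circular RNAs of transporter and cholesterol genes (Abca1, Soat2 and 2 of Abcc2) had a median of 0.52 in CCl4 against control, with 3 of 4 above 0.

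Of 11 kinase or kinase-related hosts (Acvr2a, Cdk17, Clk1, Egfr, Hipk3, Insr, Mertk, Pan3, Rock1, Rps6ka5, Smg1), 4 were above 0 in CCl4 against control (median −0.11), or 6 with table-sum scaling (median 0.21). The median was also above 0 with quantile normalization (0.18), by edgeR (0.09) and by DESeq2 (0.10). In CCl4+PZH against CCl4, 9 of 11 were above 0, where 69.8% of all 434 were, or 6 with table-sum scaling. Of 7 chromatin hosts (Arid1a, Chd1, Ep300, Kmt2a, Med13l, Mga, Nsd2), 4 were above 0 in CCl4 against control with a median of 0.11, or 3 by edgeR (median −0.08) and by DESeq2 (−0.04). Of 7 GTPase regulators, 2 were above 0 with a median of −0.32, and the median ran to −0.73 by DESeq2. Of 5 ubiquitin system hosts (Cul1, Nedd4, Ube2g2 and Usp3 among them), 2 were above 0 with a median of −0.04. With table-sum scaling the counts of these 3 lists were 4, 3 and 3, and the ubiquitin median turned to 0.27.

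Among 5 RNA-binding hosts (Hnrnpu, Rbm39, Zc3h7a and Zcchc7 among them), 1 rose in CCl4, the Zc3h7a circle, against 0.461% called higher over the table, and the others did not pass. The list's median was 0.09, or 0.47 with table-sum scaling. This list and the next, like the others, were chosen with earlier results of these data known. The Zc3h7a call is thus no result about such hosts as a class. Of 7 circular RNAs from hosts that are well studied for circular RNAs (Acvr2a, Cul1, Hipk3, Nfix, Pan3, Pvt1, Zc3h7a), the call was that same Zc3h7a circle. The median was −0.22, or 0.01 with quantile normalization, 0.23 by edgeR and 0.27 by DESeq2, the last pair with 4 of 7 above 0. Hipk3, known for an abundant single-exon circle, had one of 1099 bp at 0.362 ± 0.243, 0.326 ± 0.282 and 0.341 ± 0.279 CPM in control, CCl4 and CCl4+PZH livers (SD, n = 6 each). Hosts of plasma proteins (Cfhr3, Mug2), of liver cancer lists (Arid1a, Egfr) and of the cell cycle (Brca2) held no call in any comparison.

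Cell type markers were few. Macrophage genes held 4 short circular RNAs, 3 of Adgre1 and 1 of Mertk, with none called. All 4 were above 0 in CCl4 against control (median 0.83), under each scaling tried. Their summed CPM ran from 0 to 2.71 in controls (mean 0.880), 0.368 to 4.66 with CCl4 (mean 2.04) and 0.680 to 3.02 with CCl4+PZH (mean 1.52). The part of macrophage content in the calls above was not tested. Of the stellate cell and matrix genes 1 was a host, Mmp15, a membrane metalloproteinase gene, at 0.220 ± 0.349, 0.379 ± 0.404 and 0.596 ± 0.298 CPM (SD, n = 6 each). The 8 defining hepatocyte genes, Alb and Ttr among them, hosted 0 circular RNAs in the table, so the tissue label could not be checked on them. Lists for endothelial, bile duct, red blood and neutrophil cells also had 0, and the lymphocyte list had 0 short ones.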

How the data were processed

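The deposited table holds CPM values, per the file headers, for circular RNAs given by chromosome, start and end. Bowtie2 2.5.1, HISAT2 2.2.1, StringTie 2.1.5, FastQC 0.11.9 and cutadapt 4.2 are named in the submitters' processing notes, with genome build GRCm38. How circles were called, which total scaled the CPM and how the table was filtered is not given in the sources used. All 7812 values (100%) came out as whole reads within 0.1, giving 900 to 2840 reads per library. Among 45 within-group pairs of libraries, chi-square per degree of freedom was at least 2.11 (highest p = 1.01e-31), so none was counted as a copy of another.

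Hosts, strands and neighbours came from RefSeq tables of GRCm38.p6. All 434 circular RNAs in 18 libraries were fitted together with limma 3.58.1 under R 4.3.3, as 3 group means with a trend on intensity. The fit used log2 of CPM plus 0.13655, a pseudocount taken as the smallest value above 0 of each library, median over libraries. Two-sided p-values were adjusted over the table by the Benjamini-Hochberg method. The fit was also run on simulated data, and no statement above rests on that run. Alternatives were DESeq2 1.42.0 and edgeR 4.0.16 on whole reads, other pseudocounts, filters and scalings, and libraries left out. Matplotlib 3.10.9, scipy 1.17.1, pandas 2.3.3 and numpy 2.4.6 were run under Python 3.11.15.

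Members and gene lists were chosen with earlier results of these data known. Named circular RNAs were those called, up to 12 of smallest p per comparison, the 10 of highest mean, the shortest 5, those at the span limit, called or else smallest-p members of each list, and hosts with 3 short circular RNAs. Other members named as list members, examples of shared edges or those above 0 in every library were chosen after their values were seen. Of the members these choices take, 3 are not reported here.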

Additional observations from a re-analysis of the deposited data

Results flagged for a closer look

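Of 45 groups of 6 values examined, 8 held a sample whose gap to its nearest neighbour was large against the range of the group. The cut-off marks about 5% of groups by chance where values are normally distributed. Most of these groups came from members called or of smallest p, with low values and many at 0. The 8 are therefore not read as an excess. Control 4 held 1475 reads of short circular RNAs, the most of any control. Control 2 was alone above 0 for Zc3h7a, at 2.755 CPM, and was the highest control for Ilkap, at 1.22 CPM. Control 1 was alone above 0 for Vars, at 0.136 CPM. CCl4 replicate 1 was alone above 0 for Cyp1a2, at 0.143 CPM. CCl4 replicate 5 was the highest CCl4 liver for Hnrnpu at 1.59 CPM, for Mlxipl at 0.612 CPM and for Ube2g2 at 0.489 CPM. In 3 of the 8 the sample held the only value above 0 of its group.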

How the results depend on the processing

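The call of the circular RNA on chromosome 3 held in 28 of 28 alternatives in both comparisons with controls. Where only controls were left out, its difference could not change, since all of them were at 0. Requiring values above 0 in 12 or more libraries removed it before testing. The count for CCl4 against control was 2; it was 1 with a pseudocount of 0.5 CPM, DESeq2, a replicate block or controls 3 and 4 left out together, 0 under the 12-library filter, and 1 to 4 with 1 library left out (4 without control 3; 1 without controls 1, 4, 5 or 8 or CCl4 1, 2, 7 or 8). For CCl4+PZH against control it was 1, and 0 under that filter, 2 with array weights and 1 to 3 with 1 library left out (3 without control 2). For CCl4+PZH against CCl4 it was 0 throughout. Replicate numbers did not pair the libraries: 13 pairs of one number in different groups had a median correlation of −0.017, none over 0.1, and 1 of 18 libraries matched its own number best.

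The share of summed CPM in control, CCl4 and CCl4+PZH livers was 32.1, 37.1 and 36.9% for the shortest 144 and 14.8, 21.8 and 20.1% under 1000 bp. In CCl4 it was 50.6% without the circular RNA on chromosome 3 and 49.4% in protein-coding hosts only, both chosen after seeing the data, as was leaving out controls 3 and 4 together. With 1 library left out it was 45.7 to 47.9% in controls, 52.1 to 53.1% in CCl4 and 50.3 to 51.6% in CCl4+PZH livers.

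Of 1889 alternative values for 66 named differences, 1864 kept direction and side of the threshold, 12 lost it, 6 gained it and 7 reversed. Few of the 66 had passed, and one that stayed uncalled counted as kept, so the total says little about the calls. All 12 losses were of the Zc3h7a call in CCl4 against control. Brca2 in CCl4 against control, at 0.07, ran from −0.34 to 0.32 with 1 library left out, being −0.07 without control 1, 2 or 5, −0.34 without CCl4 1 and −0.01 without CCl4 8. Without controls 3 and 4, Mmp15 in CCl4 against control became −0.0060 and Cfhr3 in CCl4+PZH against control −0.10. The cause was not tested. Depth limits all of this, at a median of 3 reads per value above 0.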
